A study of Drosophila melanogaster with 6 samples.

Results

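The genes described here encode enzymes that the fly midgut uses in digestion: proteases, carbohydrases and lysozymes. They were picked out by gene symbol, from a set drawn up with earlier results of these data known, and comprised 56 of the 17806 named genes counted. There were 29 protease genes (the Jonah genes, the trypsins, Bace and yip7), 20 carbohydrase genes (the maltases of the Mal-A and Mal-B groups, the amylases, the LMan mannosidases and tobi) and 7 lysozyme genes of the Lys group. RNA was sequenced from GFP-positive progenitors of the Drosophila melanogaster intestine, each replicate being sorted from 100 gastrointestinal tracts dissected from adult females. The flies of both genotypes had been kept at 29 °C for 6 days, and 30000 to 50000 cells were sorted per replicate. The genotypes were called Patr1 (3 libraries) and esgTS (3 libraries). The labels give no allele, RNA interference construct or promoter for either name and do not say that the replicates came from separate cultures or days, so p-values measure the spread between these libraries, which may be technical.

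Digestive enzymes are made in bulk by enterocytes, the absorptive cells of the midgut epithelium, and most are secreted into the gut lumen. Proteases cut dietary protein, amylases and maltases break starch and its fragments down to glucose, and lysozymes cut the cell wall of bacteria. Stem cells and their undifferentiated daughters, the progenitors sorted here, give rise to enterocytes, and digestive enzyme genes are commonly used as readouts of that step. Patr-1 promotes removal of the mRNA cap and is found in P-bodies, which are cytoplasmic granules of silenced mRNA, and by its design text the series looked for RNAs under their control.

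Library totals ran from 2035676 to 2958607 reads. The Patr-1 transcript was at 35.7 ± 3.37 CPM, reads scaled to a common library total, in Patr1 and 219.1 ± 12.1 CPM in esgTS (mean ± SD, n = 3 each; log2 fold change -2.62, edgeR adjusted p = 1.56e-09). The progenitor marker esg was at 547.7 to 698.5 CPM in Patr1 and 610.3 to 693.3 CPM in esgTS. In bulk RNA of this kind, fewer cells of a type and less RNA per cell cannot be told apart.

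Digestive enzyme transcripts were present at low to moderate levels in both genotypes, and they were not equally well measured. The 56 genes together took 1147, 1299 and 1229 reads in Patr1 replicates 1, 2 and 3, and 1205, 1051 and 1185 reads in the esgTS replicates. Of the 56, 24 passed the expression filter and were tested. A further 26 had at least 3 reads in one genotype and were too low to test, 3 (deltaTry, Amyrel and LManIV) had fewer than 3 reads in each genotype, and 3 (Jon74E, gammaTry and LysS) had no read in any library. How reads shared by closely similar trypsin genes were assigned is not stated. Few or no reads for deltaTry and gammaTry therefore do not show that these genes were not expressed. The tested genes comprised 14 proteases, 6 carbohydrases and 4 lysozymes. The filter asked for about 3.65 CPM, which is 10 reads at the median library size, in at least 3 libraries. Of the tested genes, Amy-d was the only one to reach it in Patr1 libraries alone, and Jon25Bi, Jon25Bii, epsilonTry and LysE reached it in all 3 Patr1 libraries but in 1 or 2 of esgTS. Amy-d could be tested only because it was higher in Patr1. The esgTS libraries of Jon25Bi, Jon25Bii, epsilonTry and LysE would not have met the filter by themselves. In the other direction, Jon25Biii and LManII reached it in all 3 esgTS libraries but in 2 of Patr1. The counts below describe the tested genes and not all 56, and they depend in part on this filter.

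Per transcript length, in TPM, Jon65Aiv was the most abundant member in Patr1, at 198.9 ± 31.2 TPM, against 123.2 ± 22.5 TPM in esgTS. LysD was at 132.3 ± 12.8 TPM in Patr1 and was the most abundant in esgTS, at 142.7 ± 52.2 TPM. The gene yip7 was at 133.4 ± 17.96 TPM in Patr1 and 118.7 ± 3.57 TPM in esgTS, and LysC at 102.7 ± 6.06 TPM in Patr1 and 118.0 ± 38.4 TPM in esgTS. The place of LysC rests on its short deposited length of 242 bases. In Patr1 it had 9.25 CPM, while LysB had 10.2 CPM and 44.9 TPM. The trypsin gene alphaTry was at 125.6 ± 6.09 TPM in Patr1 and 98.5 ± 14.2 TPM in esgTS. LysD, yip7 and alphaTry lay within their spread of each other in Patr1, as did LysD, Jon65Aiv, yip7 and LysC in esgTS. The median tested gene was at 79.0 TPM in Patr1 and 78.7 TPM in esgTS. In Patr1, 82.6% of tested genes were below Jon65Aiv, and in esgTS 67.1% were. The lowest tested member was LManII, at 3.56 ± 1.74 TPM in Patr1 and 3.95 ± 0.779 TPM in esgTS. The carbohydrases were all below the median gene in both genotypes, from LManII up to Amy-p in Patr1 (37.1 ± 7.77 TPM) and to Mal-A6 in esgTS (20.4 ± 2.23 TPM).

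**Figure D1:**
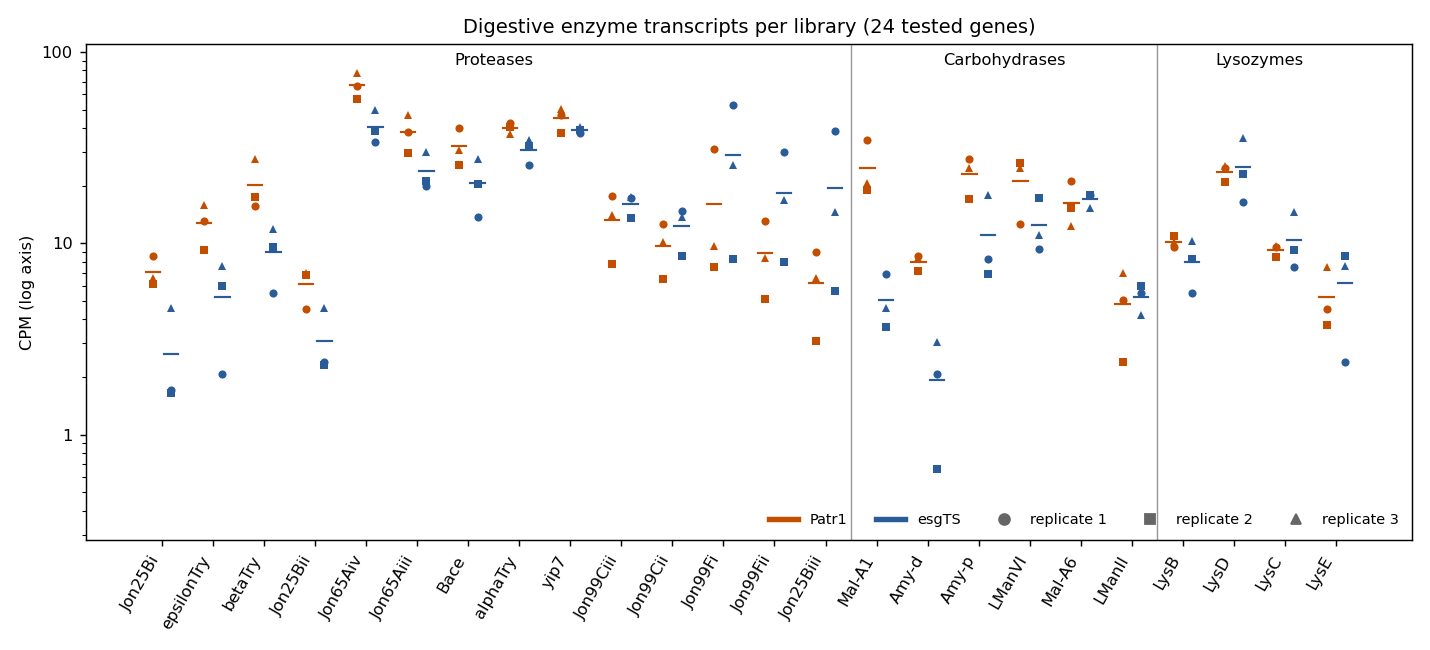
CPM in each library (log axis) for the 24 tested genes, by class, with Patr1 left of esgTS, replicates 1 to 3 as circle, square and triangle, and a bar at each mean. Mal-A1 and Amy-d stand clear of esgTS in every Patr1 library, whereas Jon99Fi and Jon25Biii spread widely within esgTS.

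Proteases and carbohydrases were more often higher than lower in Patr1, and no lysozyme passed the test. Of the 24 tested genes, 12 rose, 1 fell and 11 did not pass (edgeR, quasi-likelihood, with p adjusted over all 7927 tested genes and a threshold of 0.05). Across all tested genes 49.4% were called, 25.5% as higher and 23.9% as lower. By class, 8 of 14 proteases rose and 1 fell, 4 of 6 carbohydrases rose and none fell, and 0 of 4 lysozymes passed in either direction. Among the risen genes, Amy-d, Jon25Bi, Jon25Bii and epsilonTry met the expression filter through their Patr1 libraries. The median log2 fold change was 0.51 for the tested proteases, 0.92 for the carbohydrases and -0.13 for the lysozymes, against 0.01 for all tested genes. The libraries of the genotypes did not overlap in 7 of the 24, each with Patr1 above. Of all tested genes 57.3% were so separated, 29.6% with Patr1 above and 27.7% with Patr1 below.

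Several of these calls were lost when a library was left out, which also leaves fewer libraries to test. Without esgTS replicate 1, 4 of the 12 risen genes were still called, and without esgTS replicate 2, 6 were, in fits that called 21.7% and 22.0% of all genes higher. Mal-A7, which could be tested in both of those fits, rose in each. Its esgTS libraries were at 0.344 to 1.14 CPM, under the filter. Like Amy-d, Mal-A7 could therefore be tested there only because it was higher in Patr1. Some lost calls kept their size: Bace had a log2 fold change of 0.65 without Patr1 replicate 3, against 0.63 with all libraries, and alphaTry had 0.41 without esgTS replicate 2, against 0.38. Others shrank: without esgTS replicate 1 Bace had 0.40 and alphaTry 0.26. No member fell when Patr1 replicate 2, Patr1 replicate 3 or esgTS replicate 1 was left out, where 19.6%, 21.6% and 20% of all genes did. Jon25Biii, Jon99Fi and Jon99Fii fell when Patr1 replicate 1 or esgTS replicate 2 was left out, where 23.7% and 20.1% of all genes did. DESeq2 called 8 of the 12 risen genes higher (19.7% of all genes) and 1 gene, Jon99Fii, lower (19.0%). Scaling by library totals alone left 9 of the 12, without Bace, alphaTry and LManVI, where 22.7% of all genes were higher.

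**Figure D2:**
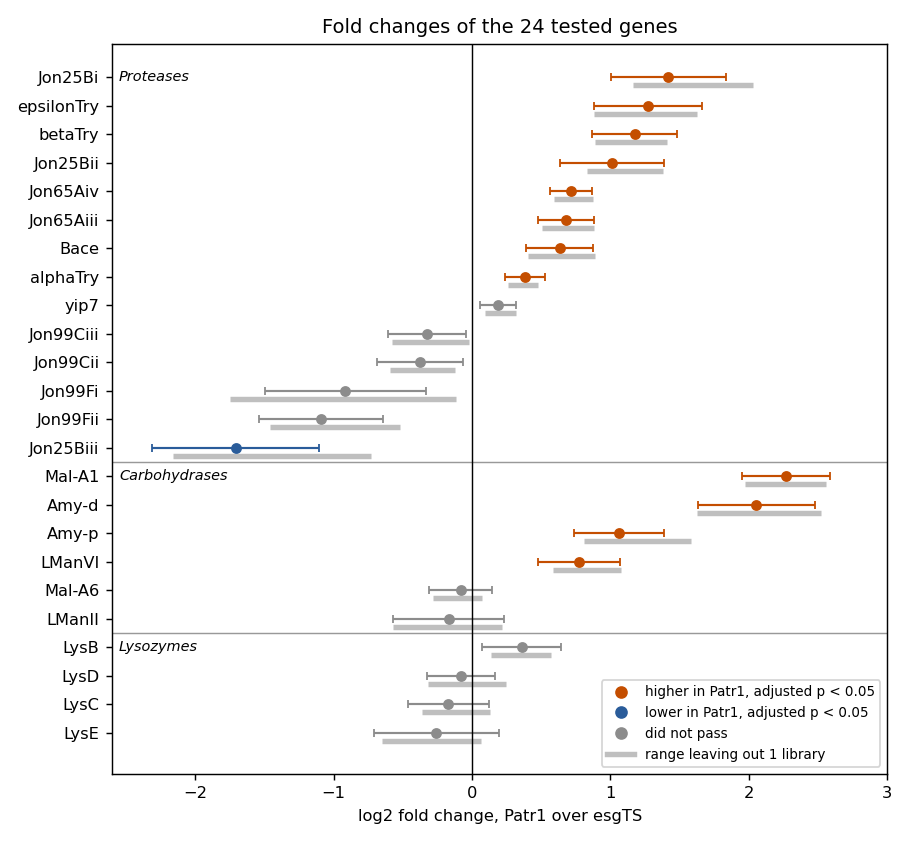
Log2 fold change of Patr1 over esgTS for each tested gene with its standard error, and below it in grey the range when 1 library is left out. The 4 largest rises among proteases lie between 1.01 and 1.42, Mal-A1 and Amy-d lie above 2, and the lysozymes straddle 0.

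All 3 trypsins that could be tested rose. Trypsins are serine proteases that cut after lysine and arginine. The transcript of betaTry was at 15.6, 17.4 and 27.7 CPM in Patr1 replicates 1, 2 and 3, against 5.50, 9.59 and 11.8 CPM in the esgTS replicates. Every Patr1 library lay above every esgTS library, a 2.26-fold rise (log2 1.18 ± 0.31 SE, edgeR adjusted p = 0.00706). The level of epsilonTry was 13.1, 9.20 and 15.8 CPM in Patr1, against 2.06, 5.95 and 7.63 CPM in esgTS. These groups also stood apart (a 2.42-fold rise, log2 1.27 ± 0.39 SE, edgeR adjusted p = 0.0166), though the esgTS values rest on 6, 18 and 20 reads. The most abundant trypsin, alphaTry, differed least, at 42.7, 40.6 and 37.4 CPM in Patr1 against 25.8, 32.1 and 34.7 CPM in esgTS. Its lowest Patr1 library was just above its highest esgTS library (log2 0.38 ± 0.14 SE, edgeR adjusted p = 0.0416).

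The call of betaTry held without each library in turn. That of epsilonTry was lost without Patr1 replicate 3 or esgTS replicate 1, and that of alphaTry without Patr1 replicate 1 or 2 or esgTS replicate 1 or 2. Closely similar trypsin genes may share reads, and no label says how such reads were assigned, so the split between them is uncertain. With the reads of alphaTry, betaTry, gammaTry and deltaTry summed, the level was 60.4 ± 4.01 CPM in Patr1 and 39.95 ± 7.96 CPM in esgTS (log2 0.60 ± 0.14 SE, edgeR adjusted p = 0.00393). The 11 trypsin genes are near one another in the genome, and alphaTry, epsilonTry and betaTry are consecutive among them.

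The Jonah proteases, a family of chymotrypsin-like serine proteases expressed in the gut, moved both ways. Of 16 genes, 9 were tested, of which 4 rose, 1 fell and 4 did not pass. Jon65Aiv was at 66.3, 56.9 and 77.3 CPM in Patr1, against 33.7, 38.7 and 49.6 CPM in esgTS. Its groups did not overlap (a 1.64-fold rise, log2 0.72 ± 0.15 SE, edgeR adjusted p = 0.00217), and the call held without each library in turn. Its neighbour Jon65Aiii was at 38.2, 29.6 and 46.6 CPM in Patr1, against 19.9, 21.2 and 30.1 CPM in esgTS, which overlap in 1 library of each genotype (log2 0.68 ± 0.20 SE, edgeR adjusted p = 0.0152). That call was lost without Patr1 replicate 3 or esgTS replicate 1 or 2. The adjacent serine protease gene yip7 did not pass, at 44.9 ± 6.34 CPM in Patr1 and 39.1 ± 1.31 CPM in esgTS (n = 3 each, edgeR adjusted p = 0.254).

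Within the group of 3 neighbouring Jon25B genes, 2 rose and 1 fell. Jon25Bi had 17, 18 and 15 reads in Patr1 and 5, 5 and 12 reads in esgTS, or 7.09 ± 1.28 CPM against 2.65 ± 1.67 CPM. Its groups stood apart (a 2.67-fold rise, log2 1.42 ± 0.42 SE, edgeR adjusted p = 0.0127), with a log2 fold change of 2.03 without esgTS replicate 3, and the call was lost without esgTS replicate 1 or 2. Jon25Bii had 9, 20 and 16 reads in Patr1 and 7, 7 and 12 reads in esgTS, or 6.12 ± 1.39 CPM against 3.10 ± 1.28 CPM. Its lowest Patr1 library was slightly below its highest esgTS library (log2 1.01 ± 0.38 SE, edgeR adjusted p = 0.0394), and the call was lost without Patr1 replicate 2 or 3 or esgTS replicate 1 or 2. Jon25Biii was at 9.04, 3.07 and 6.59 CPM in Patr1, against 38.5, 5.62 and 14.5 CPM in esgTS. It was called lower (log2 -1.71 ± 0.61 SE, edgeR adjusted p = 0.0329), but its groups overlapped, and esgTS replicate 1 alone held 112 of its 167 esgTS reads. Without esgTS replicate 1 the log2 fold change was -0.73 and the call was lost, as it was without Patr1 replicate 2 or 3.

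The 4 Jonah genes of the 99C and 99F groups that were tested had negative fold changes, and none passed in the edgeR fit used for the counts above. With all libraries but no filter beyond 1 read, Jon99Fi and Jon99Fii were called lower, as were 15.9% of all genes. They were also called lower with replicate number added as a block, where 1902 of 7927 genes were. Jon99Fi was at 31.2, 7.498 and 9.67 CPM in Patr1, against 52.6, 8.27 and 25.6 CPM in esgTS, a spread within each genotype larger than the difference between them (log2 -0.91 ± 0.58 SE, edgeR adjusted p = 0.213). Jon99Fii was at 13.1, 5.11 and 8.35 CPM in Patr1, against 29.9, 7.94 and 16.8 CPM in esgTS (log2 -1.09 ± 0.45 SE, edgeR adjusted p = 0.0614). The groups overlapped in both genes, and replicate 1 was the highest library of each genotype. Leaving out 1 library moved the log2 fold change of Jon99Fi between -1.75 (without Patr1 replicate 1) and -0.12 (without esgTS replicate 1), and that of Jon99Fii between -1.46 and -0.52. DESeq2 called Jon99Fii lower (adjusted p = 0.0402). Jon99Cii was at 9.72 ± 3.06 CPM in Patr1 and 12.4 ± 3.31 CPM in esgTS, and Jon99Ciii at 13.2 ± 4.94 and 16.1 ± 2.20 CPM. Summed over all 16 genes, Jonah transcripts came to 211.1, 134.6 and 191.6 CPM in Patr1 and 223.4, 111.1 and 183.8 CPM in esgTS, which overlap.

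Bace, an aspartic protease gene, was the remaining protease to rise. It was at 40.2, 25.6 and 30.8 CPM in Patr1, against 13.8, 20.5 and 27.5 CPM in esgTS, where the groups overlap (a 1.55-fold rise, log2 0.63 ± 0.24 SE, edgeR adjusted p = 0.0453). The call was lost without Patr1 replicate 1 or 3 and without esgTS replicate 1 or 2, and it was also lost with DESeq2 and under library totals (adjusted p = 0.0569 and 0.0561).

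Among the 24 tested genes the largest fold changes were those of 2 starch-digesting enzymes, Mal-A1 and Amy-d. The maltase gene Mal-A1, whose product splits maltose into glucose, was at 34.7, 19.1 and 20.7 CPM in Patr1, against 6.87, 3.64 and 4.58 CPM in esgTS. No library of one genotype came near the other (a 4.82-fold rise, log2 2.27 ± 0.32 SE, edgeR adjusted p = 8.97e-05), and the call held without each library in turn. The amylase gene Amy-d had 17, 21 and 19 reads in Patr1 and 6, 2 and 8 reads in esgTS, or 8.02 ± 0.751 CPM against 1.925 ± 1.2 CPM. Its groups stood apart (a 4.16-fold rise, log2 2.06 ± 0.42 SE, edgeR adjusted p = 0.00149), and the call held without each library. The second amylase gene, Amy-p, was at 27.6, 17.0 and 24.6 CPM in Patr1, against 8.25, 6.95 and 17.9 CPM in esgTS. Its esgTS replicate 3 lay above its lowest Patr1 library (a 2.09-fold rise, log2 1.06 ± 0.32 SE, edgeR adjusted p = 0.0165), and the call was lost without esgTS replicate 1 or 2.

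Amy-p and Amy-d are near-identical neighbours whose reads cannot be told apart with certainty. With their reads summed, the rise was smaller than that of Amy-d alone: amylase was at 31.1 ± 6.20 CPM in Patr1 and 12.96 ± 7.07 CPM in esgTS (log2 1.27 ± 0.30 SE, edgeR adjusted p = 0.00448). The amylase-related gene Amyrel had 1 read in each genotype.

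The maltase genes other than Mal-A1 differed among themselves. Mal-A6, the other one tested, was at 21.1, 15.3 and 12.3 CPM in Patr1, against 17.9, 17.9 and 15.2 CPM in esgTS (log2 -0.08 ± 0.23 SE, edgeR adjusted p = 0.788). It was the most abundant maltase in esgTS, and Mal-A1 was the most abundant in Patr1, by CPM and by TPM. The 6 Mal-A genes too low to test fell into those with many more reads in Patr1 and those without. Mal-A7 gathered 29 reads across Patr1 and 6 across esgTS, which is a depth-scaled ratio of 5.74 (exact 95% counting interval 2.34 to 16.9). Mal-A4 had 25 and 8 reads (ratio 3.71, interval 1.62 to 9.53), and Mal-A8 had 25 and 7 (ratio 4.24, interval 1.79 to 11.6). In each of these 3 every Patr1 library was above every esgTS library. Mal-A2, Mal-A3 and Mal-A5 had 25, 13 and 15 reads in Patr1 and 19, 9 and 23 in esgTS, with intervals that include 1. The 8 Mal-A genes are neighbours in the genome in the order of their numbers. Mal-A2 and Mal-A3, between Mal-A1 and Mal-A4, had ratios of 1.56 and 1.72, and Mal-A5 had 0.775. Counts this low cannot tell whether the genes with more reads in Patr1 form 1 block.

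**Figure D3:**
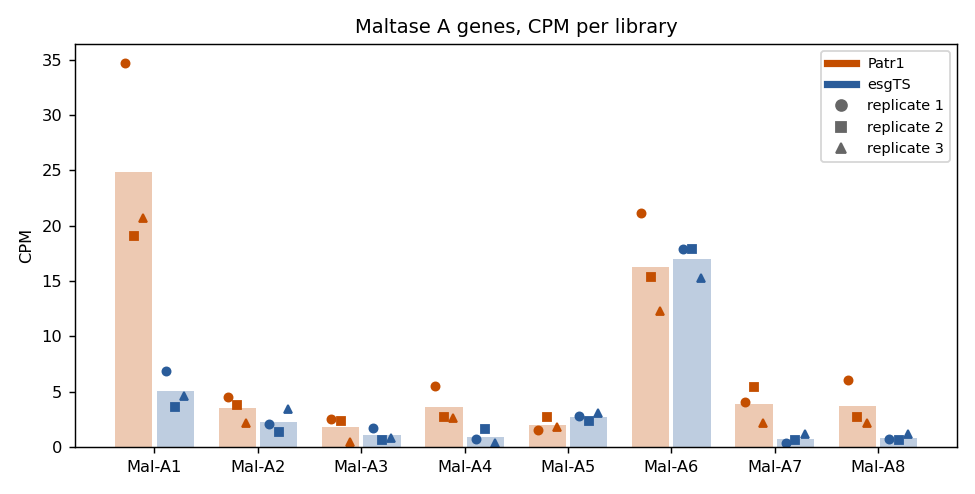
CPM per library of the 8 neighbouring Mal-A genes in their genomic order, with Patr1 left of esgTS, bars at the means and replicates 1 to 3 as circle, square and triangle. Mal-A1 shows the largest difference in CPM, and the Mal-A6 libraries overlap.

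Of the mannosidase genes, LManVI rose and LManII did not pass. The family is named for lysosomal alpha-mannosidase, which trims mannose from glycoproteins. LManVI was at 12.6, 26.2 and 24.6 CPM in Patr1, against 9.28, 17.2 and 11.1 CPM in esgTS, where the lowest Patr1 library lay among the esgTS libraries (a 1.71-fold rise, log2 0.77 ± 0.30 SE, edgeR adjusted p = 0.0467). The call was lost without Patr1 replicate 2 or 3 or esgTS replicate 1 or 3. LManII was at 4.81 ± 2.33 CPM in Patr1 and 5.22 ± 0.913 CPM in esgTS (edgeR adjusted p = 0.748). LManIII had 15 reads in Patr1 and 6 in esgTS (ratio 2.97, interval 1.09 to 9.35), and LManI and LManV had 14 and 28 reads in Patr1 and 9 and 23 in esgTS.

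The glycosidase gene tobi, named as a target of brain insulin, had 12 reads in Patr1 and 2 in esgTS. The ratio was 7.13 with an exact 95% counting interval of 1.59 to 65.6, and its Patr1 reads were 5, 6 and 1 by replicate against 1, 0 and 1 in esgTS. Mal-B1 and Mal-B2 had 1 and 2 reads in Patr1 and 5 and 7 reads in esgTS. Summed over all 20 genes, carbohydrase transcripts came to 145.7, 117.9 and 117.4 CPM in Patr1 and 64.6, 66.2 and 71.7 CPM in esgTS. That is 127.0 ± 16.2 CPM against 67.5 ± 3.73 CPM (n = 3 each), a ratio of 1.88, with no overlap between the genotypes. The same sum over the 29 proteases was 339.2 ± 56.8 CPM in Patr1 and 285.3 ± 48.3 CPM in esgTS, which overlap.

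None of the 4 lysozyme transcripts that could be tested passed. LysD, the most abundant, was at 24.6, 20.8 and 25.5 CPM in Patr1, against 16.5, 23.1 and 35.5 CPM in esgTS (log2 -0.08 ± 0.25 SE, edgeR adjusted p = 0.806). LysB was at 10.2 ± 0.683 CPM in Patr1 and 8.02 ± 2.41 CPM in esgTS (log2 0.36 ± 0.28 SE, edgeR adjusted p = 0.316). LysE was at 5.25 ± 1.96 CPM in Patr1 and 6.21 ± 3.33 CPM in esgTS (log2 -0.26 ± 0.45 SE, edgeR adjusted p = 0.661). LysC, which RefSeq lists as a pseudogene between LysB and LysD, was at 9.25 ± 0.631 CPM in Patr1 and 10.4 ± 3.61 CPM in esgTS (log2 -0.17 ± 0.29 SE, edgeR adjusted p = 0.654). DESeq2 likewise called 0 of the 4, and 0 had an edgeR p under 0.05 before adjustment.

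These neighbouring lysozyme genes are close relatives that may share reads, so the split between them is uncertain. With LysB, LysC, LysD and LysE summed, the level was 48.2, 43.97 and 52.7 CPM in Patr1 and 32.0, 49.3 and 67.9 CPM in esgTS (log2 -0.04 ± 0.21 SE, edgeR adjusted p = 0.899). The Patr1 libraries lay inside the range of esgTS. The standard error still allows a difference of either sign, so equal levels were not shown. The flanking genes LysP and LysX were too low to test and had more reads in Patr1: 28 against 14 for LysP (ratio 2.38, interval 1.21 to 4.89) and 11 against 4 for LysX (ratio 3.27, interval 0.968 to 14.1). For both, every Patr1 library was above every esgTS library. Neither passed in a fit of every gene with at least 10 reads in total (edgeR adjusted p = 0.0889 for LysP and 0.0797 for LysX).

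**Figure D4:**
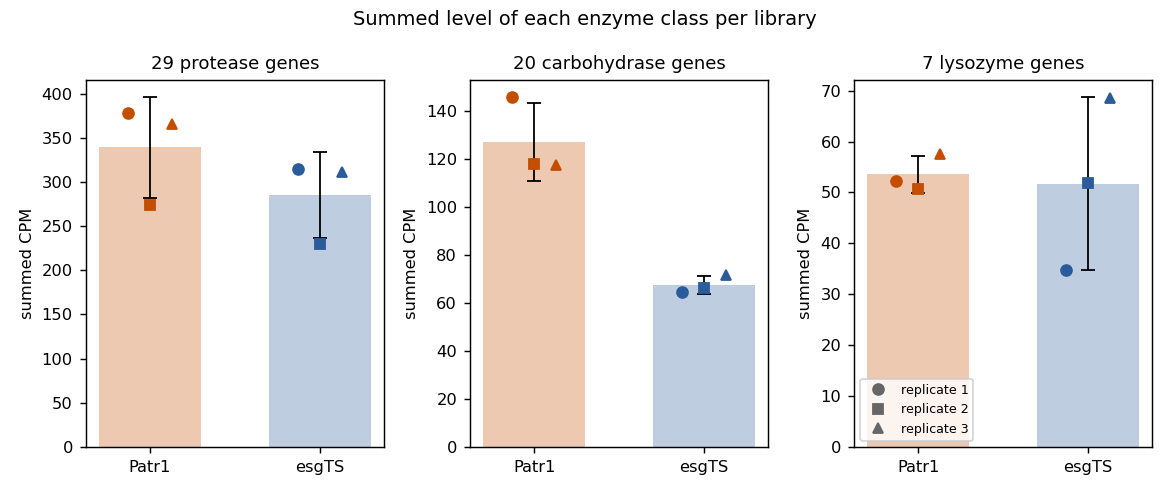
Summed CPM of all protease, carbohydrase and lysozyme genes in each library, with bars at the means, error bars of 1 SD and replicates 1 to 3 as circle, square and triangle. The 3 Patr1 libraries lie above the 3 esgTS libraries for carbohydrases, and the genotypes overlap for proteases and lysozymes.

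The protease genes too low to test showed no common side. Of 12, 5 had a depth-scaled read ratio above 1 and 6 below it, and Jon66Cii had 5 reads in Patr1 and 0 in esgTS. The trypsin gene thetaTry had 35 reads in Patr1 and 15 in esgTS (ratio 2.77, exact 95% counting interval 1.48 to 5.47), with every Patr1 library above every esgTS library. The Jonah gene Jon65Ai had 10 and 26 reads (ratio 0.457, interval 0.197 to 0.980), with overlapping libraries. The intervals of the other 9 protease genes with a ratio include 1; kappaTry, for example, had 21 reads in Patr1 and 19 in esgTS. Of the 12 carbohydrases too low to test, 9 had a ratio above 1 and 3 below. Neither these splits nor the share with separated libraries was computed over all genes this low. More genes had reads in each Patr1 library (11132 to 11832) than in any esgTS library (10885 to 11101). A fit of every gene with at least 10 reads in total could test 45 of the 56 and called 22.3% of its genes higher. LManIII and Jon65Ai, whose counting intervals exclude 1, did not pass in that fit (edgeR adjusted p = 0.0782 and 0.198). In it Mal-A7 (log2 2.42 ± 0.61 SE), Mal-A8 (2.03 ± 0.62), Mal-A4 (1.86 ± 0.61), tobi (2.60 ± 1.00) and thetaTry (1.46 ± 0.57) rose, with edgeR adjusted p of 0.00473 to 0.0469. With no filter beyond 1 read the same 5 rose, in a fit that called 17.6% of genes higher and 15.9% lower. The intervals cover the counting error of the summed reads only, not the spread between libraries, and they treat each read as an independent molecule.

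**Figure D5:**
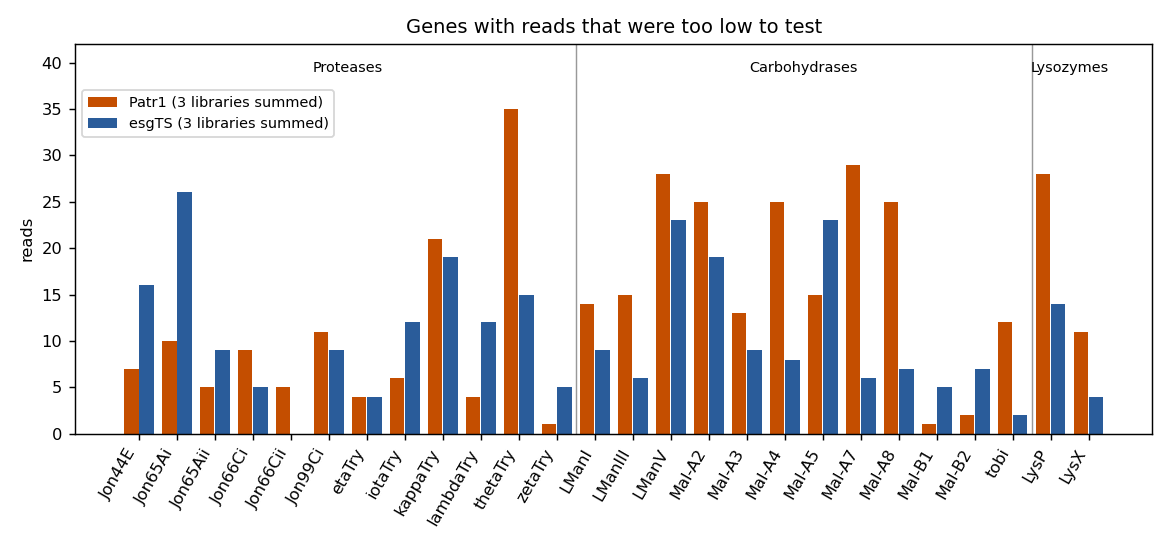
Reads summed over 3 libraries for the 26 genes with reads that were too low to test, with Patr1 left of esgTS. The bars are raw reads of 7267067 in all for Patr1 and 8443168 for esgTS, and they are higher in Patr1 for thetaTry, Mal-A7, Mal-A8, Mal-A4, LysP and tobi.

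The authors' deposited table listed 44 of the 56 genes. Of these 44, the authors' deposited table gave 10 as higher and 1 as lower at an adjusted p under 0.05, where 17.3% and 16.4% of its 9167 named genes were called. Calls made there and in the edgeR fit were shared by 8 genes: Mal-A1, Amy-d, Amy-p, Jon65Aiv, Jon65Aiii, Jon25Bi, betaTry and epsilonTry. The authors' deposited table also called Mal-A7 (log2 2.45, adjusted p = 0.0200) and Mal-A8 (log2 2.11, adjusted p = 0.0455) higher and Jon99Fii lower (log2 -1.08, adjusted p = 0.0382). The 5 genes called by edgeR and not in the authors' deposited table were Bace, Jon25Bii, Jon25Biii, alphaTry and LManVI.

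Regulators of midgut digestive gene expression moved both ways. Of 14 tested, 2 rose and 3 fell, no larger a share than the 25.5% and 23.9% of all tested genes. Their log2 fold changes had a median of -0.14. The enterocyte POU factor nub was at 102.9 ± 10.5 CPM in Patr1 and 36.9 ± 11.3 CPM in esgTS (edgeR adjusted p = 1.73e-05), and Sox21a, a factor of progenitor differentiation, also rose (log2 0.42). The nuclear receptor gene Hnf4, the GATA factor gene srp and the sugar-sensing gene Mondo fell by 1.22, 0.71 and 0.27 as log2 fold changes (edgeR adjusted p = 1.39e-06, 1.16e-04 and 0.0368). The endodermal GATA factor gene GATAe was at 373.8 ± 29.98 CPM in Patr1 and 370.3 ± 13.7 CPM in esgTS (edgeR adjusted p = 0.907). Leaving out esgTS replicate 3 gave 5 fallen regulators, and leaving out Patr1 replicate 1 or 2 or esgTS replicate 1 or 2 gave 2.

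Other secreted, lysosomal or membrane genes of digestion also moved both ways. Of 12 tested, 2 rose (mex1 and Acbp3) and 4 fell (GILT1, CtsB1, Hexo1 and Lip4), beside 25.5% and 23.9% of all tested genes. Their log2 fold changes had a median of -0.51, and the difference from all genes was not tested. GILT1, a thiol reductase gene, was at 13.9 ± 1.502 CPM in Patr1 and 84.9 ± 11.5 CPM in esgTS (log2 -2.62 ± 0.15 SE, edgeR adjusted p = 4.57e-08). The cathepsin gene CtsB1 was at 102.8 ± 3.49 CPM in Patr1 and 180.7 ± 8.64 CPM in esgTS (log2 -0.81 ± 0.08 SE, edgeR adjusted p = 4.45e-06), and the hexosaminidase gene Hexo1 fell by 0.79 as a log2 fold change (edgeR adjusted p = 7.56e-04). Acbp3, an acyl-CoA binding protein gene, was at 9.27 ± 4.43 CPM in Patr1 and 3.00 ± 1.11 CPM in esgTS (edgeR adjusted p = 0.00564).

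Markers of enterocytes, the cells that normally express these enzymes, were also more often higher than lower. Of 10 enterocyte markers, 9 were tested, of which 7 rose and 2 (Hnf4 and Myo31DF) fell. Beside this and each marker count below, 25.5% of all tested genes rose and 23.9% fell. Their summed level was 1712 to 1728 CPM in Patr1 and 1059 to 1140 CPM in esgTS. Of 10 visceral muscle markers, 5 were tested and 2 (bt and sls) rose, with a summed level of 118.6 to 144.2 CPM in Patr1 and 40.6 to 44.2 CPM in esgTS; Mhc had 57 and 56 reads. The fat body markers summed to 18.6 to 29.0 CPM in Patr1 and 16.8 to 21.4 CPM in esgTS, and Lsp2 had no reads. The summed enteroendocrine markers were at 220.2 to 424.1 CPM in Patr1 and 378.1 to 436.3 CPM in esgTS, with 2 of 9 tested higher and 2 lower. The progenitor markers summed to 5260 to 6082 CPM in Patr1 and 5628 to 6116 CPM in esgTS, with 6 of 10 tested higher and 3 lower. Hemocyte markers were at 329.1 to 393.4 CPM in Patr1 and 293.5 to 332.1 CPM in esgTS (2 of 5 tested higher, 2 lower). Within that list the collagen IV genes Col4a1 and vkg rose, at 77.7 ± 21.0 and 46.5 ± 13.6 CPM in Patr1 against 0.831 ± 0.271 and 1.505 ± 0.315 CPM in esgTS (log2 6.49 and 4.89, edgeR adjusted p = 1.93e-08 and 1.58e-07). The genes crq and srp, which carry most of the sum, fell, Hml had 15 reads in Patr1 and 2 in esgTS, and NimC1 had no reads. Copper cell markers were at 211.6 to 252.7 CPM in Patr1 and 239.9 to 309.3 CPM in esgTS (1 of 3 lower), and Malpighian tubule markers at 113.1 to 134.3 CPM in Patr1 and 136.6 to 155.2 CPM in esgTS (2 of 3 higher, 1 lower). The part of these other cell types in the enzyme values was not tested.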

How the data were processed

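RNA was prepared with TRIzol LS, and rRNA-depleted Ovation SoLo libraries were made from it, per the labels' protocols. The genotype named in each label set its group. The submitters' processing notes list, without roles, Subread 2.0.0, featureCounts, SAMtools 1.10, STAR 2.7.3a, cutadapt 2.9 and DESeq2. Settings, genome build and use of strand were "not given in the sources used here", and no coordinates are printed for that reason. Per the file headers, the deposited counts give unnormalized reads for each gene beside its length. The authors' deposited table also holds normalized values (a signal), log2 fold changes, Wald statistics (a score) and p-values; these entered no test here.

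Counts of all named genes were fitted with edgeR 4.0.16 under R 4.3.3: TMM factors, default expression filter, quasi-likelihood test, and Benjamini-Hochberg adjustment with a threshold of 0.05. The common biological coefficient of variation was 8.47%. CPM used TMM-scaled library sizes, and TPM the deposited gene lengths. A row with no gene name, at most 0.00296% of reads in any library, was left out. Pairs of same-genotype libraries gave a chi-square of 2.45 to 4.34 per degree of freedom (6 pairs), so none looked like a library deposited again. Read ratios of untested genes were scaled by group depth, with exact 95% intervals on counts. The floor of 3 reads was 0.992 to 1.51 CPM per library. Neighbours are members with at most 5 other genes between them in RefSeq Release 6, in which all 56 symbols matched; of 106 other listed symbols 104 matched. No member shared 20% or more of its exon bases with another gene in the BDGP6 annotation. The procedure was tested on simulated data, where genes with few reads were not among those changed, so the test does not cover the lowest members. Tables and plots were made in Python 3.11.15 (matplotlib 3.10.9, pandas 2.3.3, SciPy 1.17.1).

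The members and lists were chosen with earlier results of these data known. Every member that passed the filter is named; values are given per library for those that passed the test, and others were named for their place in a gene group. Untested members with at least 3 reads in a genotype are given by read counts, singly or in groups. Alternatives were DESeq2 1.42.0, other scalings, other filters on low counts, leaving out each library, a replicate block, and near-identical copies summed.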

Additional observations from a re-analysis of the deposited data

How the results depend on the processing

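Across 13 alternative fits the calls of Mal-A1, Amy-d (alone or summed with Amy-p), betaTry (alone or summed with its copies) and Jon65Aiv kept their direction and their side of the threshold. Leaving out 1 library gave 5 to 13 risen members (12 with all libraries) and 0 to 3 fallen (1), among them 2 to 9 risen (8) and 0 to 3 fallen (1) proteases, 3 to 4 risen carbohydrases (4) and 2 to 5 fallen regulators (3). Over all genes, 1675 to 2068 rose and 1583 to 1926 fell in those fits, of 8078 to 8179 tested. DESeq2 called 5 proteases higher, and 19.7% of all genes. With no filter beyond 1 read, 3 members fell, each a protease, and 8 carbohydrases rose, where 15.9% of all genes fell and 17.6% rose. With at least 10 reads in total, 8 carbohydrases rose as well (22.3% of all genes), more genes being tested. Same-numbered libraries did not pair (correlations of deviations 0.052, 0.196 and -0.0404). A replicate block gave 10 risen members and 3 fallen, where 1999 and 1902 of all 7927 tested genes rose and fell. The 3 fallen were the proteases Jon25Biii, Jon99Fi and Jon99Fii (edgeR adjusted p = 0.00195, 0.0129 and 0.00756). The sign of the log2 fold change turned in some fits for genes that did not pass: leaving out 1 library gave -0.29 to 0.072 for Mal-A6, -0.57 to 0.21 for LManII, -0.36 to 0.13 for LysC, -0.31 to 0.24 for LysD and -0.65 to 0.066 for LysE, and LysB, LysC, LysD and LysE summed gave -0.038, where LysB alone stayed positive (0.14 to 0.57 with 1 library left out); the cause was not tested. Low counts limit most members: in esgTS counting error alone gives a coefficient of variation of 42.8% for Amy-d and 36.4% for Jon25Bi. With a floor of 1 read in place of 3, 53 members rather than 50 were detected.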

Other observations

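Some Jonah genes varied between libraries of the same genotype far more than counting error gives. In esgTS the coefficient of variation was 87.0% for Jon25Biii, 77.5% for Jon99Fi and 60.7% for Jon99Fii, where counting error alone would give 13.4%, 11.1% and 13.9%. In Patr1 it was 48.2%, 81.2% and 45.2% for the same genes, against 26.2%, 16.3% and 22.0% from counting. The highest esgTS library was 6.84 times the lowest for Jon25Biii and 6.36 times for Jon99Fi. By contrast yip7 varied by 3.36% in esgTS and alphaTry by 6.70% in Patr1, both at or below the counting error of 9.49% and 10.3%. These genes were singled out after their values were seen.

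In 5 tested members (Jon25Biii, Jon99Cii, Jon99Fi, Jon99Fii and Mal-A1) replicate 1 was the highest and replicate 2 the lowest in both genotypes. The labels do not say that a replicate number marks a shared day or batch. In esgTS, replicate 3 was the highest library for 15 of the 24 tested members and replicate 1 for 6, while replicate 1 was the lowest for 12. In Patr1, replicate 2 was the lowest for 18.

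Of the 56 genes, 51 lie in 12 groups of neighbouring members. All tested members rose in the groups of trypsins (3 tested of 11), amylases (2 of 2) and LManIII to LManVI (1 of 4), beside 25.5% of all tested genes. Similar trypsins, and the amylases, may share reads, so these are not separate measurements. Of tested members, 1 of 2 rose in the Mal-A group and 2 of 3 in that of yip7 and the Jon65A genes. None of 2 passed in the 99C group, none of 2 in the 99F group, none of 1 for LManI and LManII, and none of 4 in the lysozyme group of 7. The Jon25B group held calls in both directions.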
